A study of Mus musculus with 8 samples.

Results

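Oxidative phosphorylation subunit genes were examined in the brain of mice that lack the conserved non-coding 1b interval of *Scn1a*, the gene of a neuronal voltage-gated sodium channel. The genes were taken by name: all entries of the gene table that begin with Nduf, Uqcr or Atp5, with Sdh followed by a letter from a to d, or with Cox followed by a digit from 4 to 8 and a letter. This gave 94 genes of 24015 entries, called members here, of which 44 belong to complex I, 6 to complex II, 8 to complex III, 20 to complex IV and 16 to complex V. By role, 82 were subunits or subunit isoforms. The other 12 were not subunits, and 10 of these were assembly factors.

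The data are RNA-seq libraries of 8 mice aged 7 days after birth (P7), which the labels describe as 1 per animal. The WT group had no deleted allele and held 2 males. The 1b+/- group had 1 deleted allele in each of its 4 animals, of which replicates 1 and 2 were male and replicates 3 and 4 female. The 1b-/- group had 2 deleted alleles and held 2 females. All were of a Cas9-made line on a C57BL/6N background that carries the deletion in the germ line, so it is present in every cell of the animal, and no group received a treatment. Sex and genotype cannot be told apart between WT and 1b-/-. The labels name hippocampus and the methods of the study name forebrain. The summed level of 5 hippocampal marker genes ranged from 1015 to 2168 CPM (counts relative to the TMM-adjusted library total) over the libraries. That of 5 striatal markers ranged from 110 to 200 CPM. Transcripts of both marker lists were thus present in every library, which does not decide the region that was taken.

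Oxidative phosphorylation is the series of reactions by which mitochondria turn the energy of nutrients into ATP. Complexes I and II pass electrons from NADH and succinate to ubiquinone, complex III passes them on to cytochrome c, and complex IV passes them to oxygen. Complex V, the ATP synthase, makes ATP from the proton gradient that complexes I, III and IV build. Most subunits are encoded in the nucleus and imported, and neurons, which spend much ATP on ion pumping, depend on the pathway heavily. The comparison addressed here is whether the levels of these nuclear genes differed between genotypes in libraries whose *Scn1a* level differed strongly.

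Library totals ranged from 2947770 to 20878772 counts, and 1b+/- replicate 4 and 1b-/- replicate 2 were the shallowest. Between 0.431% and 0.580% of a library's counts fell on the members. The level that a count of 0 still allows (3 counts of the total, counting error only) was between 0.144 and 1.02 CPM, depending on depth. *Scn1a* checked the labels: it was at 45.1 and 40.5 CPM in WT, at 26.7, 22.2, 25.4 and 15.7 CPM in 1b+/-, and at 3.18 and 2.0 CPM in 1b-/-, with no overlap between genotypes. Of the 94 members, 87 reached 1 CPM in at least 1 library and were tested. The other 7 were *Atp5g2*, *Atp5l*, *Cox6a2*, *Cox7b2*, *Cox8b*, *Cox8c* and *Ndufs5*.

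Promoter sequences are shown for members that share a motif, since a common promoter element is a feature that the choice by name did not use. RefSeq promoters (GRCm38.p6, 250 bases before to 50 after the annotated start) were matched for 78 of the 94 members, among them untested ones such as *Atp5g2*. The letters GCATGCGC, a core of the site of nuclear respiratory factor 1, a transcription factor known for nuclear genes of mitochondrial proteins, were found on either strand in the promoters of 12 of these 78 genes (15.4%) and of 5.41% of the 12193 genes tested that had a promoter. The letters AAGATGGC, a core of the YY1 site, were found in 11 of 78 (14.1%), against 4.63%. The letters CCGGAAG, a core of ETS family sites, were found in 19 of 78 (24.4%), against 17.3%. Over all 32851 promoters of the table, whichever gene they belong to, the shares of promoters were 2.71%, 2.75% and 8.86%. None of the 3 motifs contains another, a promoter could hold several of them, and a match of letters is not a binding site.

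By complex, the GCATGCGC letters were found in promoters of 5 of 39 complex I genes and 1 of 5 of complex II. They were found for 2 of 5 genes of complex III, 1 of 14 of complex IV and 3 of 15 of complex V. The AAGATGGC letters were found in 8 of 39 complex I and 3 of 15 complex V genes and in none of the 24 others. Below, 60 bases upstream of the start are given 5′ to 3′ on the strand of the gene for 5 of the members with the GCATGCGC letters, and capitals mark the run that holds them. The windows were placed on mm9 by their own exact match, outside the annotated gene body, at chr17:56857100-56857159 (plus strand) for *Ndufa11*, chr15:82184770-82184829 (minus strand) for *Ndufa6*, chr4:24825092-24825151 (plus strand) for *Ndufaf4*, chr5:115799095-115799154 (minus strand) for *Cox6a1* and chr15:102501486-102501545 (minus strand) for *Atp5g2*.
Ndufa11: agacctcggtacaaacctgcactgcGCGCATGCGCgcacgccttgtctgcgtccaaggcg
Ndufa6: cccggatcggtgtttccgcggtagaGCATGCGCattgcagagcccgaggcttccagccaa
Ndufaf4: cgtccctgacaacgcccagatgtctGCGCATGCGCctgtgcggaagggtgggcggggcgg
Cox6a1: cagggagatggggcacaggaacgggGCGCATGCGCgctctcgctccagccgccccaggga
Atp5g2: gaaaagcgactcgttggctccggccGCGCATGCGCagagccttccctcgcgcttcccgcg
In 4 of these 5 windows the run is a 10-base palindrome that reads the same on both strands. The first base of the run lay 60 bases before the RefSeq start in *Ndufa11*, 83 in *Ndufa6*, 113 in *Ndufaf4*, 162 in *Cox6a1* and 42 in *Atp5g2*.

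No member passed the adjusted threshold in any comparison of genotypes. With edgeR's quasi-likelihood test and Benjamini-Hochberg adjustment over all 15588 genes tested, 0 of 87 members were called in 1b+/- against WT (0.0834% of all genes were called), 0 in 1b-/- against WT (0.00642%), and likewise 0 in 1b-/- against 1b+/- (0.00642%). In each comparison with 1b-/- the only gene called was the targeted gene, *Scn1a*. At an unadjusted p under 0.05 the members were 2, 1 and 1, against 4.34%, 1.64% and 1.23% of all genes, so the shares of members (2.30%, 1.15% and 1.15%) were at or below the background. *Atp5g1*, counted in both comparisons with WT, reached 1 CPM only in 1b+/- and 1b-/- libraries and was thus admitted by the groups in which it was high. The count past the adjusted threshold was also 0 with DESeq2's Wald test, with 2, 1 and 1 members at an unadjusted p under 0.05, and with edgeR's likelihood ratio test. In these tissue samples, fewer cells of a type and less RNA per cell cannot be told apart.

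The median change of the members stayed near those of all genes. The median log2 fold change was 0.06 in 1b+/- against WT (0.01 over all genes), 0.01 in 1b-/- against WT (-0.01), and it was -0.07 in 1b-/- against 1b+/- (-0.00). By complex the medians of 1b+/- against WT ranged from 0.03 (complex II) to 0.12 (complexes III and IV), and those of 1b-/- against WT from -0.07 (complex II) to 0.14 (complex III). For 1b-/- against 1b+/- they ranged from -0.10 (complex II) to -0.05 (complexes IV and V). All 6 members of complex II had negative values in 1b-/- against WT, between -0.12 and -0.03, each smaller than its standard error. The comparisons share libraries, so their values are given side by side only.

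In the 2 comparisons with 1b-/-, leaving out 1 library could turn the sign of the median, and in 1b+/- against WT the median stayed positive under every such omission. The median in 1b-/- against WT was 0.18 without 1b-/- replicate 1, -0.15 without 1b-/- replicate 2, -0.02 without WT replicate 1 and -0.11 with sex as a covariate. The median in 1b-/- against 1b+/- was 0.11 without 1b-/- replicate 1, -0.26 without 1b-/- replicate 2, -0.16 without 1b+/- replicate 2, -0.01 without 1b+/- replicate 1 and -0.01 without 1b+/- replicate 4. In 1b+/- against WT the median was 0.14 without 1b+/- replicate 2, 0.15 without WT replicate 2, 0.03 without 1b+/- replicate 1, 0.03 without 1b+/- replicate 4 and -0.00 with sex as a covariate. No direction is therefore stated for the members as a group.

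The precision bounds what could have been seen. For the 70 members with a mean of at least 10 CPM, the standard error of a log2 fold change had a median of 0.20 in 1b+/- against WT, 0.24 in 1b-/- against WT, and it was 0.21 in 1b-/- against 1b+/-. Their log2 fold changes lay between -0.28 and 0.60, between -0.41 and 0.37, and between -0.62 and 0.16 in these comparisons. Differences of the size of these standard errors were not detectable with 2 to 4 animals per genotype. Larger ones could also be missed. In 1b+/- against WT, *Scn1a* itself had a log2 fold change of -0.90 (SE 0.21). Its adjusted p was 0.381 in edgeR's quasi-likelihood test.

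**Figure D1:**
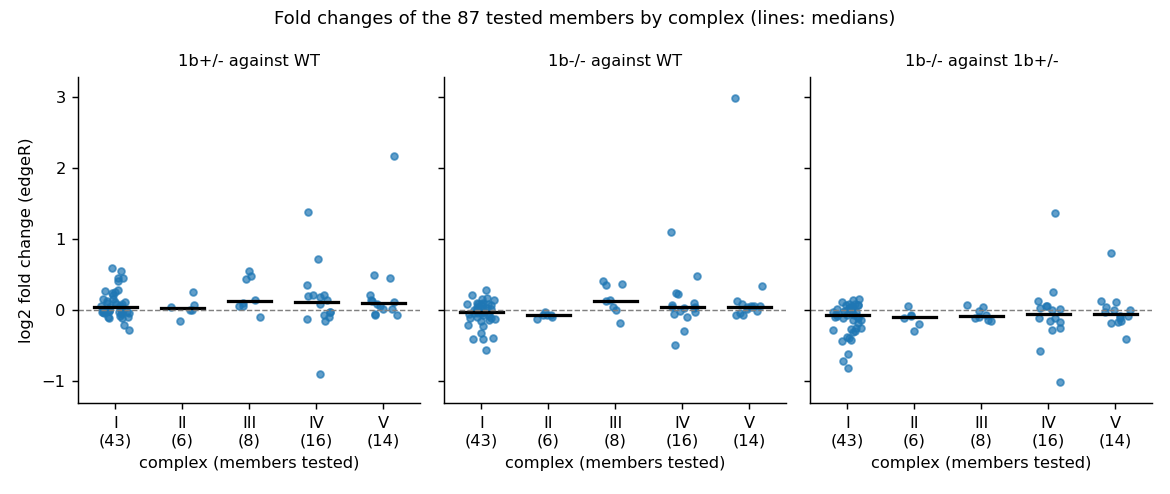
Log2 fold change (edgeR, vertical axis) of each of the 87 tested members (dots) by respiratory complex (horizontal axis, number of members tested in brackets) in the 3 comparisons, with the median of each complex as a black line. The medians lie between -0.10 and 0.14, and the dots farthest from 0 are members of low count: *Atp5g1* at 2.18 and 2.99, and *Cox7a1* and *Cox7c*.

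Complex I, the NADH dehydrogenase, holds the largest number of members. Core members were followed in every library. *Ndufv1*, which carries the NADH-binding site, was at 52.2 and 50.7 CPM in WT, at 65.7, 37.0, 53.1 and 70.1 CPM in 1b+/-, and at 43.7 and 63.6 CPM in 1b-/-. The lowest and the highest library were both 1b+/-, and the genotypes overlapped. *Ndufs1*, the largest iron-sulfur subunit, was at 128 and 101 CPM in WT, at 101, 107, 124 and 95.8 CPM in 1b+/-, and at 109 and 101 CPM in 1b-/-. The genotypes overlapped here as well, and the log2 fold changes of both genes lay between -0.12 and 0.12 in the comparisons of genotypes, each smaller than its standard error.

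Complex II, the succinate dehydrogenase of the citric acid cycle, was followed in its 2 catalytic subunits. *Sdha*, the flavoprotein subunit, was at 194 and 198 CPM in WT, at 191, 191, 217 and 188 CPM in 1b+/-, and at 181 and 192 CPM in 1b-/-. Over the 8 libraries its log2 CPM had an SD of 0.08. *Sdhb*, the iron-sulfur subunit, was at 66.3 and 60.1 CPM in WT, at 71.3, 51.2, 70.4 and 74.1 CPM in 1b+/-, and at 53.1 and 63.3 CPM in 1b-/-. *Sdha* in 1b-/- was below both WT libraries by a small margin, with a log2 fold change of -0.07 (SE 0.14).

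Complex III, the cytochrome bc1 complex, was represented by a core protein and the Rieske protein. *Uqcrc1*, the core protein, was at 71.6 and 74.5 CPM in WT, at 92.9, 65.2, 74.4 and 93.1 CPM in 1b+/-, and at 58.5 and 88.4 CPM in 1b-/-. *Uqcrfs1*, the Rieske iron-sulfur protein, was at 28.4 and 28.7 CPM in WT, at 32.2, 19.8, 28.8 and 25.7 CPM in 1b+/-, and at 21.7 and 29 CPM in 1b-/-. In both genes the 2 WT libraries lay close together, and the 1b+/- and 1b-/- libraries spread to both sides of them.

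For complex IV, cytochrome c oxidase, the catalytic subunits are encoded in mitochondrial DNA and were not analysed here. *Cox4i1*, the largest nuclear subunit, was at 92.0 and 90.1 CPM in WT, at 121, 85.5, 99.3 and 118 CPM in 1b+/-, and at 79.0 and 100 CPM in 1b-/-. *Cox5a*, a matrix-side subunit, was at 23.2 and 28.2 CPM in WT, at 34.9, 22.5, 29.6 and 30.7 CPM in 1b+/-, and at 23.4 and 30 CPM in 1b-/-. The genotypes overlapped in both.

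Complex V gave the members with the most counts. *Atp5a1*, the alpha subunit of the catalytic head, was at 629 and 631 CPM in WT, at 644, 529, 639 and 735 CPM in 1b+/-, and at 540 and 659 CPM in 1b-/-. *Atp5b*, the beta subunit that holds the catalytic sites, was at 500 and 525 CPM in WT, at 662, 469, 571 and 684 CPM in 1b+/-, and at 475 and 582 CPM in 1b-/-. As in *Sdhb*, *Uqcrc1* and *Cox4i1*, 1b+/- replicate 2 and 1b-/- replicate 1 were low and 1b+/- replicate 4 was high. For *Atp5b* the log2 fold change was 0.22 (SE 0.17) in 1b+/- against WT and 0.04 (SE 0.19) in 1b-/- against WT.

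**Figure D2:**
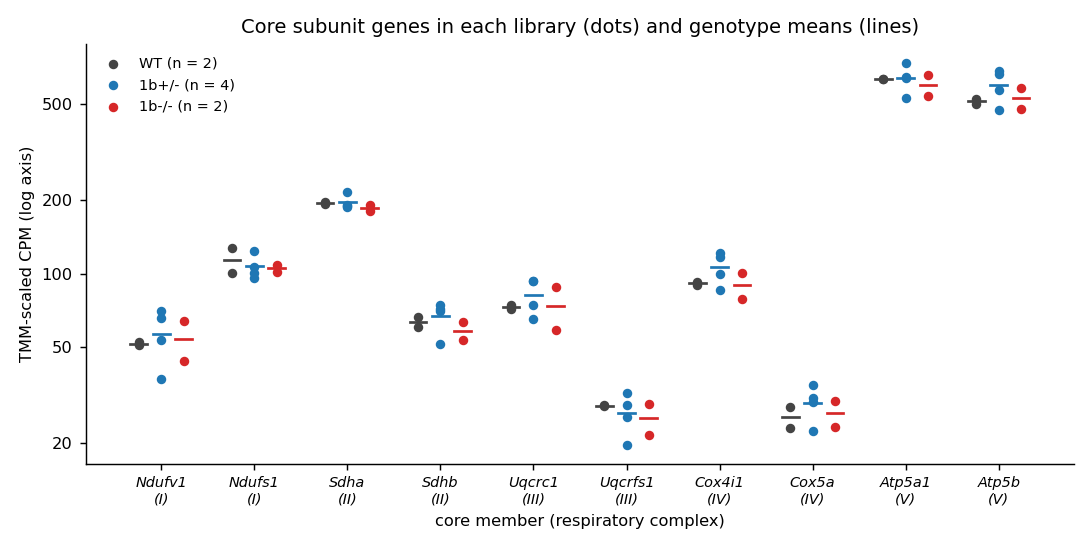
TMM-scaled CPM on a log axis (vertical) of 10 members with their complex in brackets (horizontal), where each dot is a library and each short line the mean of a genotype. The figure labels them core, but by role *Uqcrc1*, *Cox4i1* and *Cox5a* are accessory subunits. The genotypes overlap in every gene but *Sdha*, in which the 1b-/- libraries (181 and 192 CPM) lie below the WT libraries (194 and 198 CPM). Of the 1b-/- libraries, the one at 181 CPM lies below the 1b+/- libraries (188 to 217 CPM) and the one at 192 CPM lies among them.

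Members whose libraries did not overlap between genotypes were counted beside such genes in the whole table. In 1b+/- against WT, 6 members were higher in every 1b+/- library (6.90% of the members, 6.4% of all genes): *Atp5g1*, *Atp5o*, *Atp5sl*, *Ndufa11*, *Ndufb4* and *Ndufb6*. In the same comparison 3 were lower in every library (3.45%, against 5.93%): *Cox7a2l*, *Ndufa10* and *Ndufaf2*. In 1b-/- against WT, 2 members were higher (2.30%, against 11.6%), *Atp5g1* and *Uqcr11*, and 8 were lower (9.20%, against 12%): *Cox7a2l*, *Ndufa10*, *Ndufa2*, *Ndufa6*, *Ndufaf2*, *Ndufaf6*, *Ndufc1* and *Sdha*. *Atp5g1* reached the 1 CPM needed for testing only in 1b+/- and 1b-/- libraries, so its place among the higher members against WT is a description only. In 1b-/- against 1b+/-, 3 were higher (3.45%, against 3.41%), *Atp5g1*, *Cox7c* and *Ndufaf2*, and 7 were lower (8.05%, against 3.98%): *Cox4i2*, *Ndufa2*, *Ndufa6*, *Ndufa9*, *Ndufb4*, *Ndufb6* and *Ndufc1*. In 1b-/- against 1b+/-, 6 of the 7 lower members belong to complex I, to which 43 of the 87 tested members belong. This grouping was seen in the list itself and was not tested. The median log2 fold change of complex I in this comparison was -0.07, within the range of the 5 complexes (-0.10 to -0.05).

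The members with the smallest unadjusted p are given for each comparison, and none of them passed the adjustment. *Ndufa2*, an accessory subunit of complex I, was at 7.11 and 8.73 CPM in WT, at 10.7, 8.18, 7.90 and 11.4 CPM in 1b+/-, and at 4.28 and 6.76 CPM in 1b-/-. Both 1b-/- libraries lay below all others. The log2 fold change was -0.81 (SE 0.28) in 1b-/- against 1b+/-, with an adjusted p of 1.0 in edgeR's quasi-likelihood test, and -0.56 (SE 0.32) in 1b-/- against WT. *Ndufa2* overlaps *Tmco6* in the mm9 annotation, and since the use of strand in counting is not stated, reads of the 2 genes may not be separated.

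*Ndufc1*, a small accessory subunit of complex I, was at 17.7 and 14.6 CPM in WT, at 15.4, 16.7, 16.1 and 17.4 CPM in 1b+/-, and at 13.6 and 10.5 CPM in 1b-/-. Its 1b-/- libraries were the 2 lowest, with log2 fold changes of -0.41 (SE 0.22) against WT and -0.42 (SE 0.20) against 1b+/-. *Ndufa6*, another accessory subunit, was at 70.9 and 62.2 CPM in WT, at 60.8, 64.6, 69.0 and 66.1 CPM in 1b+/-, and at 58.9 and 55.8 CPM in 1b-/-. This is the order of *Ndufc1* at a smaller size, with log2 fold changes of -0.22 (SE 0.16) and -0.18 (SE 0.14). *Ndufa6* holds the motif letters shown above.

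In 1b+/- against WT the values were led by *Atp5g1*, described below, and by *Atp5o*, the stalk subunit that joins the head of the ATP synthase to its membrane part. *Atp5o* was at 31.8 and 39.4 CPM in WT, at 53.3, 39.5, 42.1 and 61.4 CPM in 1b+/-, and at 32.9 and 41.1 CPM in 1b-/-. The 1b+/- libraries were all above WT, with 39.5 CPM in the lowest of them against 39.4 CPM in the higher WT library, with a log2 fold change of 0.45 (SE 0.21, adjusted p = 1.0 in edgeR's quasi-likelihood test). In 1b-/- against 1b+/- it was -0.40 (SE 0.21). *Ndufb6*, an accessory subunit of complex I, was at 10.5 and 9.04 CPM in WT, at 17.3, 11.4, 12.6 and 12.4 CPM in 1b+/-, and at 11.1 and 9.51 CPM in 1b-/-, so that both groups with 0 or 2 deleted alleles lay below the group with 1.

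In the other direction, *Ndufaf2*, an assembly factor of complex I, was at 38.1 and 37.2 CPM in WT, at 26.4, 33.1, 31.9 and 33.4 CPM in 1b+/-, and at 35.0 and 33.8 CPM in 1b-/-. The 1b-/- libraries lay between the other genotypes. Its log2 fold change was -0.28 (SE 0.16) in 1b+/- against WT. *Ndufa10*, an accessory subunit, was at 86.7 and 97 CPM in WT, at 86.4, 69.6, 78.3 and 84.1 CPM in 1b+/-, and at 75.7 and 82.9 CPM in 1b-/-, with a log2 fold change of -0.21 in each comparison with WT (SE 0.14 and 0.16). *Cox7a2l*, a factor that joins complexes III and IV into supercomplexes, was at 381 CPM in both WT libraries, at 310, 364, 356 and 370 CPM in 1b+/-, and at 366 and 347 CPM in 1b-/-, with log2 fold changes of -0.12 (SE 0.13) and -0.10 (SE 0.15) against WT.

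Of the members named by the same rule with higher values in 1b-/- against WT, *Uqcr10* and *Uqcrq* turned sign when 1b-/- replicate 2 was left out. *Uqcr10*, a small subunit of complex III, was at 8.35 and 8.89 CPM in WT, at 15.6, 7.37, 10.9 and 13 CPM in 1b+/-, and at 8.32 and 14.5 CPM in 1b-/-. *Uqcrq*, another small subunit of complex III, was at 5.62 and 6.13 CPM in WT, at 9.83, 5.25, 8.0 and 10.02 CPM in 1b+/-, and at 5.75 and 9.76 CPM in 1b-/-. In both genes 1b-/- replicate 1 was at the WT level and replicate 2 above it. The log2 fold changes were 0.37 (SE 0.37) and 0.36 (SE 0.37).

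The largest spread among the members lay between libraries, not between genotypes. For each library, the median over the 87 members of the difference from the member's own mean was taken on the log2 scale. It was -0.08 and -0.03 in WT, 0.17, -0.24, 0.01 and 0.26 in 1b+/-, and -0.20 and 0.14 in 1b-/-. The 1b+/- libraries thus covered the range of all others. The pooled SD of these medians within a genotype was 0.20, larger in size than the median log2 fold changes over all members with all 8 libraries in the fit (0.06, 0.01 and -0.07).

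The shift was shared by most members, though not by all. In 1b+/- replicate 2 and in 1b-/- replicate 1, only 11 of the 87 members were above their own mean. In 1b+/- replicates 1 and 4 the number was 67 and 70, and in 1b-/- replicate 2 it was 66. In WT replicates 1 and 2 and 1b+/- replicate 3 it was 32, 43 and 48. All 5 complexes were below their own mean in 1b+/- replicate 2 (medians from -0.39 in complex III to -0.19 in complex I) and above it in 1b+/- replicate 4 (from 0.20 in complex IV to 0.30 in complexes II and III). In 1b-/- replicate 2 complex II was the exception, at -0.00, while the others were between 0.13 and 0.25.

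Summed over the 94 members, the level was 4868 and 4934 CPM in WT, 5385, 4340, 4992 and 5706 CPM in 1b+/-, and 4439 and 5309 CPM in 1b-/-. The means were 4901 ± 46.5 CPM in WT (SD, n = 2), 5106 ± 588 in 1b+/- (n = 4) and 4874 ± 615 in 1b-/- (n = 2). The WT libraries lay between the extremes of the other genotypes, and the differences between means were smaller than the SD in 1b+/- and in 1b-/-.

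**Figure D3:**
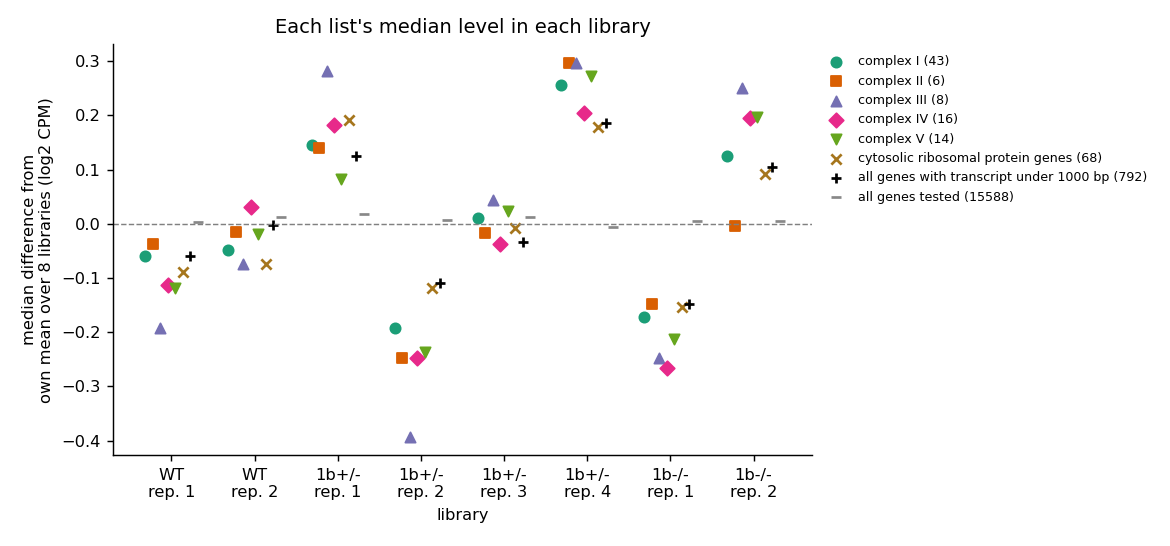
Median difference of the genes of each list from their own mean over the 8 libraries (log2 CPM, vertical axis) in each library (horizontal axis), with the number of genes tested in brackets. The 5 complexes lie below 0 in 1b+/- replicate 2 and 1b-/- replicate 1 and above 0 in 1b+/- replicates 1 and 4, as do cytosolic ribosomal protein genes and short genes, while all genes tested stay near 0.

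Other lists moved with the members. Members are short: the coding transcript used for length had a median of 875 bp against 2940 bp for all genes tested, and 58.2% were under 1000 bp against 5.67%. All 792 tested genes with a transcript under 1000 bp had medians of -0.06 and -0.00 in WT, 0.13, -0.11, -0.03 and 0.19 in 1b+/-, and -0.15 and 0.10 in 1b-/-. Those of 1000 bp or more stayed between -0.01 and 0.02. Cytosolic ribosomal protein genes (68 tested) were at -0.09 and -0.07, at 0.19, -0.12, -0.01 and 0.18, and at -0.15 and 0.09. The members under 1000 bp (46 tested) ranged from -0.29 to 0.30 over the libraries, and those of 1000 bp or more (38 tested) from -0.19 to 0.19, so that long members shifted as well.

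The summed level of 4 neuronal markers was 2162 and 2551 CPM in WT, 2089, 1720, 2275 and 2660 CPM in 1b+/-, and 1998 and 2627 CPM in 1b-/-, with 1b+/- replicate 2 lowest and replicate 4 highest, as for the members. It differed from the members in 1b+/- replicate 1, in which the members were high and the neuronal sum was not. The sum of 4 astrocyte markers was at 548 and 741 CPM in WT, from 749 to 835 CPM in 1b+/-, and at 668 and 636 CPM in 1b-/-. For 6 choroid plexus markers the sum was 17.8 CPM in 1b+/- replicate 2, the lowest, and 1006 CPM in WT replicate 2, the highest. For 5 hindbrain and cerebellar markers it was highest in 1b+/- replicate 1, at 32.5 CPM, and 0 in 1b+/- replicate 4. None of the marker genes of these 4 lists was at 0 in all libraries. A further list, of 6 stratified epithelium markers, separated WT from both other genotypes. Its sum was 122 and 31.7 CPM in WT, and between 1.16 and 5.45 CPM in every 1b+/- and 1b-/- library. The source of these transcripts, and their part in the comparisons with WT, was not tested. The part of transcript length, cell makeup, region and depth in the shift between libraries was not tested.

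The spread of single members followed a similar division. Among the 70 members with a mean of at least 10 CPM, the SD of log2 CPM over the 8 libraries had a median of 0.24, against 0.20 for 9609 genes of that level. The least variable were *Ndufv2* (0.07), a core subunit of complex I, *Sdha* (0.08), *Sdhaf2* (0.09), an assembly factor of complex II, *Cox7b* (0.10) and *Cox7a2l* (0.10). All of these have transcripts over 1000 bp. The most variable were *Atp5k* (0.56), a small membrane subunit of the ATP synthase, *Ndufa7* (0.52), *Atp5g3* (0.49), *Ndufb8* (0.46) and *Ndufa1* (0.43), with transcripts between 371 and 723 bp.

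*Atp5k* was at 14.3 and 16.9 CPM in WT, at 14.2, 7.78, 12.6 and 28.4 CPM in 1b+/-, and at 11.5 and 21.8 CPM in 1b-/-. Its highest and lowest libraries were both 1b+/-, and its second highest was 1b-/- replicate 2. By contrast, *Ndufv2* stayed between 77.3 and 88.1 CPM in all libraries.

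Levels were compared between genes as RPKM, the CPM per kilobase of the coding transcript, averaged over the 8 libraries. In complex I the highest member was *Ndufs6* at 115 RPKM and the lowest tested one *Ndufab1*, the mitochondrial acyl carrier protein, at 0.331 RPKM. In complex II *Sdha* was highest at 66.9 RPKM and *Sdhaf2* lowest at 10.8 RPKM. In complex III *Uqcrh* was highest at 113 RPKM and *Uqcrq* lowest at 4.96 RPKM. In complex IV the tested members ran from *Cox7c* at 0.877 RPKM to *Cox7a2l* at 313 RPKM, with the untested *Cox6a2*, *Cox7b2*, *Cox8b* and *Cox8c* lower still, and in complex V from *Atp5g1* at 0.211 RPKM to *Atp5b* at 292 RPKM. The medians of the tested members with a length were 31.1, 19, 22.3, 52.5 and 44.5 RPKM from complex I to complex V. These levels depend on the transcript taken for length, which was 3479 bp for *Ndufab1*, 1521 bp for *Uqcrq* and 4715 bp for *Atp5g1*.

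Copies of member sequences elsewhere in the genome were measured because a read that matches several places can be dropped or given to another place, and the rule used in counting is not stated. For each transcript, the share of its 50-base windows (the read length) with an exact copy elsewhere in mm9 was taken. The median was 1.72% over 91 members and 1.03% over 13977 genes tested. At least 10% of the windows were copied in 27 members (29.7%, against 9.44% of all genes), and at least 50% in 7 members (7.69%, against 2.43%). These 7 were *Atp5g2* (100%), *Atp5l* (89.4%), *Cox7c* (71.5%), *Cox5b* (63.2%), *Uqcrb* (61.7%), *Atp5h* (59.9%) and *Cox7a2l* (54.9%). The 91 members include some that were not tested, whereas the genes compared with them were all tested. Of the 84 tested members with a length, 24 (28.6%) reached the 10% limit and 5 (5.95%) the 50% limit.

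Members with many copied windows were listed at levels from 0 to the highest. *Ndufs5*, an accessory subunit of complex I with 49.8% of its windows copied, had 0 counts in all 8 libraries. *Atp5l*, a membrane subunit of the ATP synthase, had 10 counts in all, *Atp5g2* 15, and *Cox7c*, a subunit of cytochrome c oxidase, 33. *Cox7a2l*, in contrast, was the highest member of complex IV with 54.9% copied, and *Uqcrq* was the lowest of complex III with 0.679% copied. The part of copies in these levels was not tested, and the levels of members with copied windows are uncertain. In addition, 18 members overlap another protein-coding gene in the mm9 annotation.

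**Figure D4:**
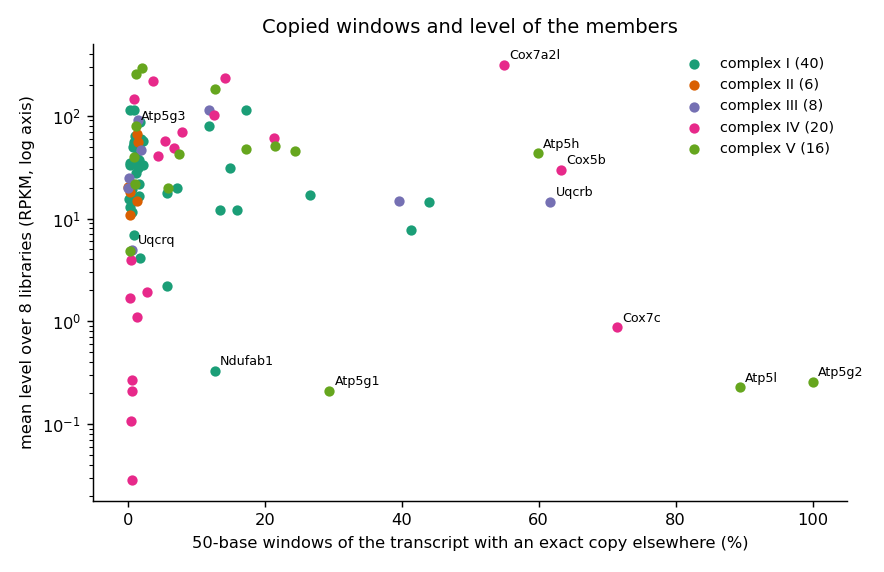
Share of the 50-base windows of a member's transcript with an exact copy elsewhere in the mm9 genome (horizontal axis, %) and its mean level over 8 libraries (vertical axis, RPKM on a log axis), with members as dots coloured by complex. *Ndufs5*, with 0 counts, cannot be drawn on the log axis. *Atp5g2*, *Atp5l* and *Cox7c* combine copied shares of over 70% with levels under 1 RPKM, whereas *Cox7a2l* is at 313 RPKM.

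Subunit c, which forms the turning ring of the ATP synthase, is made from 3 genes that differ in their import signals and encode the same mature protein. The 3 coding sequences are shown because reads can be assigned to a gene only where they differ. Over the last 210 coding bases, *Atp5g1* and *Atp5g2* were identical at 84.3% of positions, *Atp5g1* and *Atp5g3* at 80%, and *Atp5g2* and *Atp5g3* at 78.1%. The longest identical run was 21, 11 and 8 bases, shorter than a read. Bases 88 to 147 of this stretch, the part with the most positions shared by all 3 genes (48 of 60), read 5′ to 3′ on the coding strand as below, with capitals at positions where the 3 genes are not all identical. The genes lie on mm9 at chr11:95930166-95936984 (*Atp5g1*), chr15:102493299-102501478 (*Atp5g2*) and chr2:73746504-73749383 (*Atp5g3*), all on the minus strand, and the bases are from exons of their coding transcripts.
Atp5g1: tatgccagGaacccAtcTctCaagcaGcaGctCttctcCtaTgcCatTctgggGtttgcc
Atp5g2: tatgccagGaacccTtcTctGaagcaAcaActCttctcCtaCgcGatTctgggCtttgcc
Atp5g3: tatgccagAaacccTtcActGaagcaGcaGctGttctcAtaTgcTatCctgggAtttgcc

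The transcripts taken for length were 723 bp for *Atp5g3*, 647 bp for *Atp5g2* and 4715 bp for *Atp5g1*, and shares per length depend on this choice. Of the 3, *Atp5g3* gave 98.3% to 99.9% of the counted subunit c level per length in every library, with 1.19% of its windows copied. The copied share was 29.4% for *Atp5g1* and 100% for *Atp5g2*. Reads of these 2 genes may have been dropped or given to another place, so the shares do not measure the use of the 3 genes. It was at 41.0 and 66.2 CPM in WT, at 58.3, 45.2, 45.5 and 89.5 CPM in 1b+/-, and at 34.9 and 83.9 CPM in 1b-/-. Within each genotype its libraries differed by more than the genotype means did, and the log2 fold change against WT was 0.13 in both other genotypes (SE 0.35 and 0.41). *Atp5g2*, with 100% of its windows copied, had 0 counts in both WT libraries and 15 counts over the other 6.

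*Atp5g1* had the smallest p of all members. It had 2 counts in each WT library (0.165 and 0.306 CPM), 20, 7, 25 and 2 counts in 1b+/- (1.32, 0.707, 1.21 and 0.668 CPM), and 17 and 6 counts in 1b-/- (2.08 and 1.5 CPM). On the CPM scale the genotypes did not overlap, with WT lowest and 1b-/- highest. The gene reached 1 CPM, the level needed for testing, only in 1b+/- and 1b-/- libraries, so it was admitted by the groups in which it was high, and its difference from WT is given as a description. From summed counts, the 1b+/- level was 5.16 times that of WT (95% interval 1.90 to 19.6) and the 1b-/- level 8.80 times (3.01 to 35.0), and these exact intervals cover counting error only. The fitted log2 fold changes were 2.18 (SE 0.73) and 2.99 (SE 0.79), with adjusted p of 1.0 and 1 in edgeR's quasi-likelihood test. Over the 16 alternatives the lowest adjusted p of any member in 1b-/- against WT was 0.0870, for *Atp5g1* under edgeR's likelihood ratio test. With 29.4% of its windows copied and 4 counts in WT, this gene was at the limit of what the libraries can measure. Its share of the subunit c level per length was under 1% in every library, at the 4715 bp transcript taken.

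*Cox7c* was also at that limit. It had 2 and 7 counts in WT, 6, 2, 7 and 0 in 1b+/-, and 5 and 4 in 1b-/-, where the count of 0 stands in the shallowest library, and on the CPM scale the 1b-/- libraries (0.612 and 1.0 CPM) were above all 1b+/- libraries (0 to 0.396 CPM). Its adjusted p in 1b-/- against 1b+/- was 1.0 in edgeR's quasi-likelihood test.

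Several subunits of complex IV have a widespread isoform and one restricted to certain tissues, and the widespread one dominated in every library. *Cox4i1* gave 98.4% to 99.1% of the Cox4 level per length, with *Cox4i2*, the isoform known from lung and pericytes, at 1.68 RPKM. *Cox6a1* gave 99.4% to 100%, *Cox6b1* 98.9% to 99.8%, *Cox7b* 97.1% to 100% and *Cox8a* 98.1% to 100% of their subunits. The muscle isoforms were near the floor: *Cox6a2* had 11 counts over all libraries, *Cox8b* had 1 and *Cox7a1* had 50. The testis isoforms were as low, with 14 counts for *Cox7b2*, 4 for *Cox8c* and 61 for *Cox6b2*.

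*Cox7a2* gave 93.4% to 100% of its pair with *Cox7a1*, and *Ndufa4*, a subunit of complex IV despite its name, 90.8% to 97% of its pair with *Ndufa4l2*. *Ndufa4l2*, a paralog known from pericytes and low oxygen, was therefore the most abundant of the restricted genes, at 2.98 and 4.60 CPM in WT, at 3.70, 2.52, 2.18 and 6.34 CPM in 1b+/-, and at 3.43 and 4.76 CPM in 1b-/-. The genotypes overlapped. The sum of 6 pericyte markers was 169 and 179 CPM in WT, from 193 to 239 CPM in 1b+/-, and 235 and 181 CPM in 1b-/-. This sum was highest in the library in which *Ndufa4l2* was highest. The next highest sum, 235 CPM in 1b-/- replicate 1, stood beside 3.43 CPM of *Ndufa4l2*. In 1b-/- replicate 2, a sum of 181 CPM stood beside 4.76 CPM. The part of pericytes in the level of *Ndufa4l2* was not tested. The sum of 7 muscle markers ranged from 9.11 to 29.3 CPM, highest in WT replicate 1, where *Cox7a1* had 0 counts.

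Sex was compared within 1b+/-, where both sexes were present. With edgeR's quasi-likelihood test, 0 of 87 members passed the adjusted threshold in female against male (0.0321% of all genes did), and 0 had an unadjusted p under 0.05 (2.66% of all genes), while DESeq2's Wald test gave 0 and 1. The median log2 difference was 0.13 over the members and -0.00 over all genes, and 66 of the 87 were higher in females. These are the libraries that differed most among themselves: the female pair held replicate 4, the highest, and the male pair replicate 2, the lowest. The smallest p belonged to *Ndufb7*, an accessory subunit of complex I, at 20.8 and 14.1 CPM in the 1b+/- males and 21.7 and 30.4 CPM in the females, with a log2 difference of 0.54 (SE 0.28, adjusted p = 1.0 in edgeR's quasi-likelihood test). *Atp5k* followed at 0.80 (SE 0.43) and *Atp5s*, a factor related to the ATP synthase, at 0.47 (SE 0.28). *Cox7a1*, *Cox6c* and *Ndufs6* had the smallest p among members lower in females, with values of -1.60 (SE 1.25), -0.18 (SE 0.18) and -0.17 (SE 0.20).

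The 3 X-linked members were *Ndufa1*, *Ndufb11* and *Cox7b*. *Ndufa1*, an essential small subunit of complex I, was at 35.4 and 19.1 CPM in the 1b+/- males and 28.0 and 47.1 CPM in the 1b+/- females. *Ndufb11* of the same complex was at 11.8 and 7.17 CPM in these males and 9.89 and 15.7 CPM in these females. *Cox7b* was at 51.4 and 43.6 CPM in the males and 43.8 and 51.4 CPM in the females. The log2 differences were 0.42 (SE 0.36), 0.36 (SE 0.33) and -0.01 (SE 0.18), and the sexes overlapped in each gene. Between the male WT and the female 1b-/- libraries the log2 fold changes were 0.03 (SE 0.36), -0.03 (SE 0.33) and 0.03 (SE 0.17).

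Other genes of the pathway were counted from lists made by role: cytochrome c and further subunits, complex assembly, the inhibitor of ATP synthase, carriers of ADP, ATP and phosphate, regulators of mitochondrial gene expression, and genes that track mitochondrial mass. Of 59 genes, 46 were in the table and 44 were tested, and the 13 genes of mitochondrial DNA were not analysed here. With edgeR's quasi-likelihood test, 0 of 44 passed the adjusted threshold and 0 had an unadjusted p under 0.05 in each of the 3 comparisons of genotypes. Their median log2 fold changes were 0.05, 0.01 and -0.00. *Cyc1*, the cytochrome c1 subunit of complex III, was at 17.4 and 19.9 CPM in WT, at 24.9, 15.4, 19.8 and 25.7 CPM in 1b+/-, and at 14.6 and 21.3 CPM in 1b-/-, and the genotypes overlapped. The 23 tested assembly genes had medians of 0.06, 0.05 and -0.02.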

How the data were processed

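Poly(A) RNA of 8 P7 mice was sequenced as stranded libraries read from a single end on a HiSeq lane. The authors aligned reads to mm9 with STAR 2.7.2 and counted them with featureCounts. The deposited counts are whole reads per gene symbol, not normalized. Strand use in counting, the treatment of multi-mapping reads and the release of the annotation are not given in the sources used here. Library totals were 2947770 to 20878772 counts. The 15588 genes that reached 1 CPM in any library were tested with edgeR 4.0.16 (R 4.3.3): TMM scaling, the quasi-likelihood test with genotype as the only factor, all 8 libraries in the fit, and Benjamini-Hochberg adjustment over all genes at 0.05. Standard errors are the log2 fold change divided by the square root of F. Female against male came from a fit with 1b+/- divided by sex. P-values measure the spread between these libraries, and that each is a separate animal rests on the labels.

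Positions and transcript lengths are from the GENCODE annotation of mm9 (91 of 94 members matched), using the coding transcript with the longest coding sequence. Where coding sequences were equally long, the longest transcript was taken. Copied windows were counted by exact match of every 50-base stretch of that transcript to the mm9 genome on both strands. Promoters are from RefSeq. The fitting was tested on simulated data, which held no shift shared by the genes of a library. The members, lists and naming rule were chosen with earlier results of these data known. The rule named, per comparison, the 3 members in each direction with the smallest unadjusted p. With levels it named a list of core and accessory members, subunit c genes, isoform pairs and X-linked members. It also named the extremes of level and of spread, and those under the filter. The values of 1 core member are not reported here. As alternatives, the filter (filterByExpr, or none), the scaling (RLE, upper quartile) and the test (likelihood ratio, DESeq2 1.42.0) were changed, sex was added as a covariate, only the compared genotypes were fitted, and each library was omitted in turn.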

Additional observations from a re-analysis of the deposited data

Results flagged for a closer look

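Within the 4 1b+/- libraries, 43 measures were examined for a library that stands apart by Dixon's ratio, the gap to the nearest other library divided by the whole range. Chance gives about 1 in 20 such cases, 2.15 here, and 2 were found. *Sdha* was highest in replicate 3 (217 CPM, the others 188 to 191 CPM), with a ratio of 0.899. *Sdhb* was lowest in replicate 2 (51.2 CPM, the others 70.4 to 74.1 CPM), with a ratio of 0.837.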

How the results depend on the processing

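Under the 16 alternatives of each comparison of genotypes and the 15 of female against male, the count of members past the adjusted threshold was 0, as was the count of other pathway genes. The number at an unadjusted p under 0.05 moved between 0 and 8 in 1b+/- against WT and in female against male, and between 1 and 3 in the other comparisons. The lowest adjusted p of a member was 0.301, 0.0870 and 0.998 in the 3 comparisons of genotypes and 0.565 in female against male. Over the same alternatives, excluding the 2 other tests, the median log2 fold change of the members lay between -0.00 and 0.15 for 1b+/- against WT, between -0.15 and 0.18 for 1b-/- against WT, and between -0.26 and 0.11 for 1b-/- against 1b+/-, each move smaller than the SD between libraries of 0.20 although the sign changed. In 1b-/- against WT, the log2 fold change over single omissions ran from -0.047 (without 1b-/- replicate 2) to 0.75 (without 1b-/- replicate 1) for *Uqcr10* and from -0.025 to 0.74 for *Uqcrq* on the same omissions. The female against male difference of *Ndufs6* ran from -0.37 (without 1b+/- replicate 2) to 0.071 (without 1b+/- replicate 1). No other member named for its p changed sign. A genotype left with 1 library was assumed to vary like the others. No paired analysis was possible because replicate numbers follow the order of the samples and pair no animals. With 2 libraries in WT and 1b-/-, and 2947770 counts in the shallowest library, members under about 1 CPM were at the limit of detection.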
